A study of Mus musculus with 4 samples.

Results

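The 8 genes described here make, sense, move or use adenosine and other nucleosides at the T cell surface and inside the cell: Entpd1, Nt5e, Adora2a, Slc29a1, Ada, Dpp4, Adk and Upp1. They were chosen by name, with earlier results of these data known, as ectonucleotidases, an adenosine receptor and nucleoside enzymes or carriers. All 8 were found among the 19555 rows of the deposited expression tables. The study cultured naive CD4+ T cells, taken from lymph nodes and spleens of C57BL/6 animals, for 3 days with IL-6 and TGF-β1, the cytokines that induce T helper 17 (Th17) cells, and sequenced their RNA. The groups were cells labelled Smad4 knockout (KO-labelled below) at 39.5 °C and at 37 °C, and wild-type (WT) cells at 39.5 °C and WT cells at 37 °C, with 1 library in each of the 4 groups. Activation and the cytokines were common to all of them. Smad4 encodes the partner shared by the receptor-activated SMAD proteins of TGF-β signalling, and 39.5 °C is a fever-range temperature, so the design asks whether such heat alters Th17 cells and whether Smad4 matters for it. How Smad4 was deleted, the age of the animals, and whether the cultures were of separate animals or days are not stated in the labels.

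ATP released by stressed or activated cells is a danger signal. The ectonucleotidases CD39 (Entpd1) and CD73 (Nt5e) turn it stepwise into AMP and then adenosine, which restrains T cells through the cyclic AMP-raising receptor encoded by Adora2a. Adenosine is removed by uptake through the equilibrative transporter ENT1 (Slc29a1), by deamination to inosine (adenosine deaminase, Ada), or by rephosphorylation to AMP (adenosine kinase, Adk). In humans, CD26 (Dpp4) anchors adenosine deaminase at the cell surface. This anchoring has not been found for the mouse proteins. Uridine phosphorylase (Upp1) splits uridine into uracil and ribose phosphate. CD73 and CD39 are well known on regulatory T cells and on Th17 cells induced with TGF-β.

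Expression was deposited as RPKM, reads divided by exon length in kilobases and by library size, so levels of different genes can be compared. Whole reads were recovered from these values. In rows whose reads came out whole at the annotated exon length, they summed to between 14331381 and 14634712 per library. The library sizes behind the RPKM values ranged from 0.926 times all recovered reads (KO-labelled, 37 °C) to 1.03 times (WT, 39.5 °C). They were thus not plain totals of these reads, although reads of 7482 rows were recovered at another length, with less certainty. With 1 library per group, the 95% intervals below cover counting error only. Smad4 itself stood at 21.3 and 20.7 RPKM in the KO-labelled cultures at 39.5 and 37 °C, against 14.2 and 14.05 RPKM in WT at 39.5 and 37 °C. The targeted gene was therefore not lower with the KO label, a sum over all exons cannot show a partial deletion, and every genotype direction below is that of the label. T cell markers were high in every library (4 of 4 in the tables, summed level 977 to 1126 RPKM). All 5 Th17 markers were present, with sums of 415 and 264 RPKM in the KO-labelled cultures at 39.5 and 37 °C and of 2101 and 700 RPKM in WT at 39.5 and 37 °C. Of 19 NK, B cell, myeloid, dendritic, erythroid and platelet markers, 7 were among the rows, and their summed level was 1.19 to 2.09 RPKM.

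The 8 genes spanned a wide range of levels. Slc29a1 was the most abundant in both WT libraries and in the KO-labelled culture at 39.5 °C, and Upp1 led in the KO-labelled culture at 37 °C. Entpd1 was the lowest of the 8 in every library. In a bulk library, fewer cells of a type and less RNA per cell cannot be told apart, so a level below may reflect either. Each gene was annotated as protein-coding, and the reads of all 8 were whole at the exon length of GENCODE vM21, the annotation from which GRCm38 coordinates are given.

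**Figure D1:**
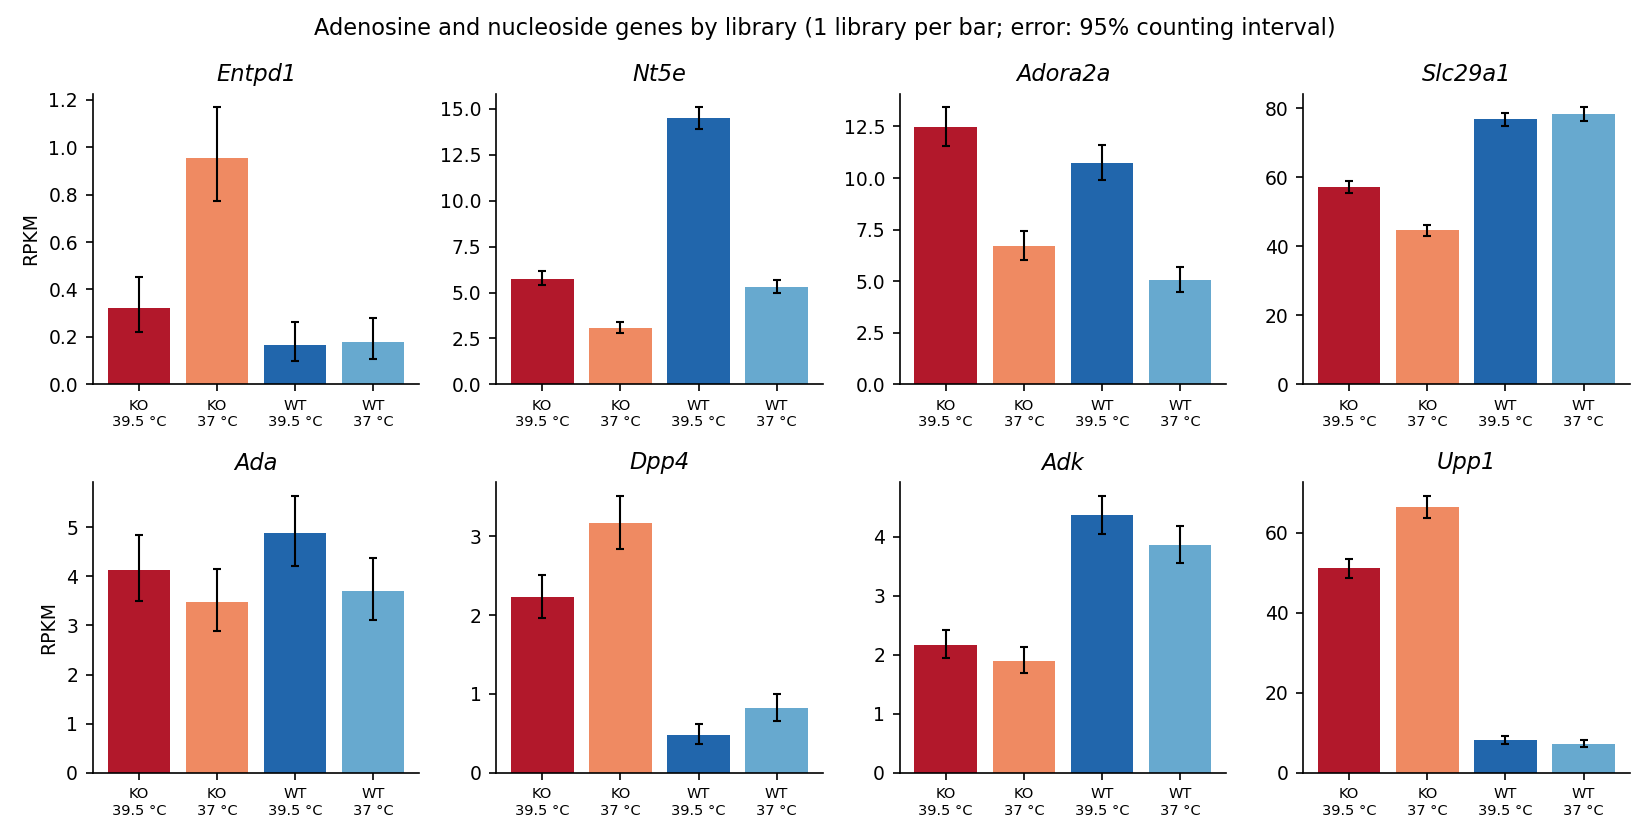
Level of each of the 8 genes in RPKM (vertical axis, from 0) in each library: labelled Smad4 KO at 39.5 and 37 °C, then WT at 39.5 and 37 °C. Each bar is 1 library and its error bar the 95% counting interval. Nt5e and Adora2a stand higher at 39.5 °C than at 37 °C within each genotype label, while Upp1, Dpp4, Adk and Slc29a1 separate by genotype label.

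Entpd1 (chromosome 19, 40612366 to 40741602, plus strand) was barely expressed. It had 0.321 RPKM (33 reads) and 0.955 RPKM (94 reads) in the KO-labelled cultures at 39.5 and 37 °C, against 0.167 and 0.177 RPKM (18 reads each) in WT at 39.5 and 37 °C. The KO-labelled culture at 37 °C thus stood above the others, and the WT libraries differed by less than counting error. Its mean of 0.405 RPKM was under the minimum of 1 RPKM set for the fits, so no test was made for it. Entpd1 makes the AMP that CD73 uses, and its transcript was below that of Nt5e in all 4 libraries. The gap was smallest with the KO label at 37 °C (0.955 against 3.08 RPKM).

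Nt5e (chromosome 9, 88327197 to 88372092, plus strand), whose product makes extracellular adenosine, had 5.76 RPKM (912 reads) and 3.08 RPKM (467 reads) in the KO-labelled cultures at 39.5 and 37 °C. In WT it had 14.5 RPKM (2408 reads) at 39.5 °C and 5.31 RPKM (832 reads) at 37 °C. The WT library at 39.5 °C was the highest by far, and the KO-labelled culture at 37 °C the lowest. The level with the KO label at 39.5 °C and that in WT at 37 °C lay within counting error of each other (ratio 1.08, 0.986 to 1.19).

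Adora2a (chromosome 10, 75316877 to 75334784, plus strand), the receptor gene, had 12.5 RPKM (703 reads) and 6.70 RPKM (362 reads) in the KO-labelled cultures at 39.5 and 37 °C. WT cells had 10.7 RPKM (634 reads) and 5.04 RPKM (281 reads) at 39.5 and 37 °C. Both libraries at 39.5 °C were above both at 37 °C, and at each temperature the library with the KO label was the higher one. Every neighbouring pair in this order differed by more than counting error.

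Slc29a1 (chromosome 17, 45585200 to 45599606, minus strand), the transporter gene, had 57.3 RPKM (4228 reads) and 44.6 RPKM (3153 reads) in the KO-labelled cultures at 39.5 and 37 °C, against 76.8 RPKM (5943 reads) and 78.3 RPKM (5714 reads) in WT at 39.5 and 37 °C. The WT libraries did not differ beyond counting error, and both were above the other pair. An antisense gene, Gm17080, shares 275 exonic bases with it (6.86% of its exons). For Dpp4 the antisense gene Gm13561 shares 232 bases (3.67%). The labels do not say whether counting used strand, so reads in those bases cannot be assigned to one gene.

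The adenosine-converting enzymes Ada and Adk were below 5 RPKM in every library. Ada (chromosome 2, 163726584 to 163750239, minus strand) had 4.12 RPKM (152 reads) and 3.48 RPKM (123 reads) in the KO-labelled cultures at 39.5 and 37 °C, against 4.89 RPKM (189 reads) and 3.70 RPKM (135 reads) in WT at 39.5 and 37 °C. No neighbouring pair in its order of levels differed beyond counting error. Adk (chromosome 14, 21052574 to 21448569, plus strand) had 2.17 RPKM (341 reads) and 1.90 RPKM (286 reads) in the KO-labelled cultures at 39.5 and 37 °C, against 4.36 RPKM (718 reads) and 3.86 RPKM (600 reads) in WT at 39.5 and 37 °C. Both WT libraries were above both with the KO label. Dpp4 (chromosome 2, 62330073 to 62412231, minus strand), a surface peptidase gene, had 2.23 RPKM (259 reads) and 3.17 RPKM (353 reads) in the KO-labelled cultures at 39.5 and 37 °C, against 0.484 RPKM (59 reads) and 0.817 RPKM (94 reads) in WT at 39.5 and 37 °C. Here the order was the opposite one, with both libraries of the KO label above both of WT.

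Upp1 (chromosome 11, 9118103 to 9136170, plus strand) had the widest span of the 8 on the log2(RPKM + 1) scale. Uridine phosphorylase transcripts stood at 51.1 RPKM (1844 reads) and 66.4 RPKM (2298 reads) in the KO-labelled cultures at 39.5 and 37 °C, against 8.19 RPKM (310 reads) and 7.31 RPKM (261 reads) in WT at 39.5 and 37 °C. The WT libraries did not differ beyond counting error, and the libraries with the KO label were far above them.

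Temperature was compared within each genotype label. Nt5e and Adora2a, the genes of the enzyme that makes adenosine and of a receptor that senses it, had the largest temperature ratios above 1, and both were above 1 with either label. Nt5e was at 1.87 times its level at 37 °C in the cells labelled Smad4 KO (1.67 to 2.10) and at 2.73 times in WT cells (2.52 to 2.96). Adora2a was at 1.86 times (1.64 to 2.12) in the cells labelled Smad4 KO and 2.13 times (1.85 to 2.46) in WT cells. Dpp4 lay below 1 in both pairs, at 0.703 (0.596 to 0.828) with the KO label and 0.592 (0.420 to 0.829) in WT. Entpd1 had a ratio of 0.336 (0.219 to 0.505) with the KO label and of 0.943 (0.463 to 1.92) in WT, where its 36 reads in all set no direction.

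On the log2(RPKM + 1) scale, which understates changes of low genes, 0 of the 7 genes with a mean of at least 1 RPKM were 2-fold higher or lower at 39.5 °C with the KO label, where 0.751% of 13715 rows were higher and 0.911% lower. In WT, Nt5e passed that rule (log2 1.30), against 1.46% of rows higher and 0.525% lower. With a pseudocount of 0.1 Adora2a passed it there as well. The median log2 ratio of the 7 genes was 0.19 with the KO label and 0.15 in WT, beside −0.01 and −0.02 over all rows. An additive limma fit of all 4 libraries took the interaction of genotype and temperature as its error, pooled with that of all tested rows. In it, 0 of the 7 had an adjusted p under 0.05 for temperature, beside 0.0219% of all rows (0.0146% higher and 0.00729% lower at 39.5 °C). The log2 ratio had 1 sign in both genotypes for 5 of the 7, beside 60.5% of all rows. The limma fit had 1 residual degree of freedom and a median of 4.475 prior degrees of freedom, borrowed from all tested rows. Its standard errors and p-values therefore rest mostly on that shared variance, not on each gene's own spread. With no separate cultures, they measure only the spread among these 4 libraries. The shared log2 differences were 1.01 ± 0.17 SE for Nt5e (limma adjusted p = 0.126) and 0.88 ± 0.13 for Adora2a (limma adjusted p = 0.0978). At an unadjusted p under 0.05, limma gave these 2 of the 7 genes, beside 14% of all rows. Each gene passed in 2 of 9 settings. With limma-voom on the recovered reads, chosen after seeing the data, the adjusted p was 0.0144 and 0.0181. That setting called 259 of all rows higher and 139 lower. In limma with a minimum mean of 5 RPKM it was 0.0192 and 0.0145, where 178 of 8947 rows were higher and 112 lower. The highest limma adjusted p, with no minimum, was 0.322 for Nt5e and 0.304 for Adora2a.

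**Figure D2:**
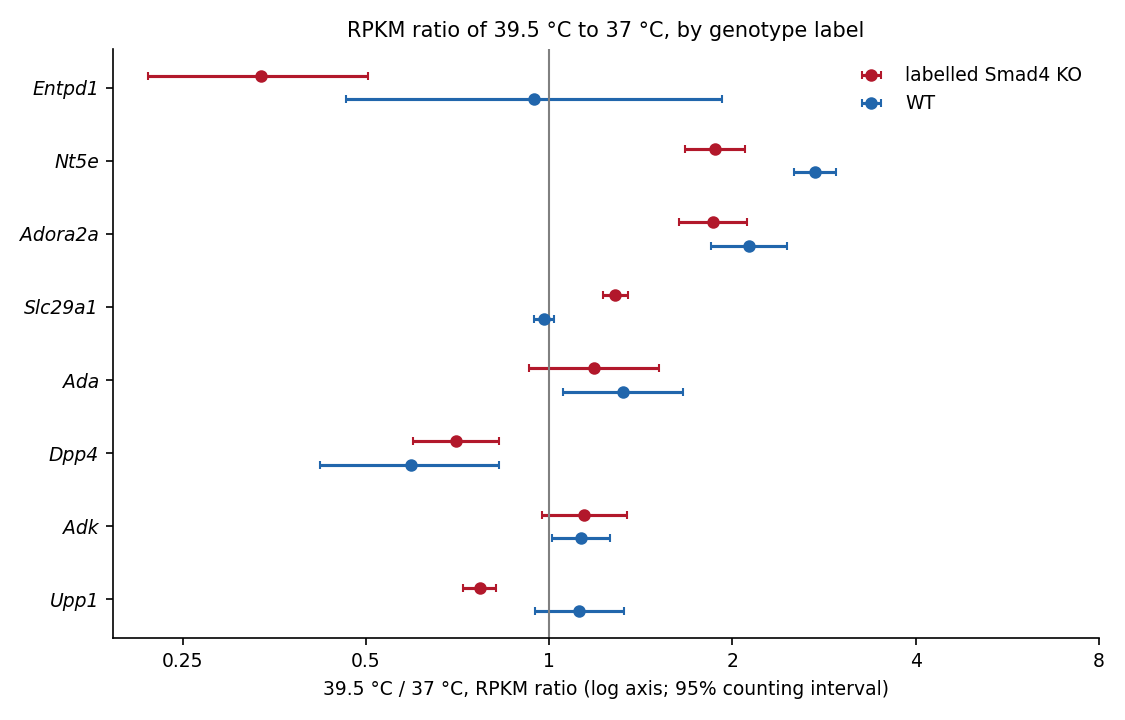
Ratio of the level at 39.5 °C to that at 37 °C (horizontal log axis) for each of the 8 genes, in the pair labelled Smad4 KO and in the WT pair. Points are ratios of RPKM between 2 libraries and lines 95% counting intervals. Nt5e and Adora2a lie right of 1 with either label, from 1.86 to 2.73.

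For the other 4 genes the temperature ratios were small or differed between the labels. Ada was at 1.18 (0.927 to 1.51) with the KO label and 1.32 (1.05 to 1.66) in WT. Adk was at 1.14 (0.973 to 1.34) and 1.13 (1.01 to 1.26) in the same 2 pairs. Slc29a1 was at 1.28 (1.23 to 1.35) with the KO label and 0.981 (0.946 to 1.02) in WT. Upp1 was at 0.769 (0.723 to 0.818) with the KO label and 1.12 (0.947 to 1.33) in WT. In limma the adjusted p for temperature of Ada, Adk, Dpp4, Slc29a1 and Upp1 lay between 0.407 and 0.813.

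Genotype was compared at each temperature. These comparisons use the same libraries as the temperature ratios, so they are not independent of them. Upp1 and Dpp4 rose with the Smad4 KO label in the additive limma fit, and Nt5e, Adk and Slc29a1 fell. That is 5 of the 7 genes tested, beside 13.3% of all rows (8.57% higher and 4.7% lower with the KO label). At an unadjusted p under 0.05 limma gave the same number of members, beside 34.6% of rows. All 7 had a genotype log2 ratio of 1 sign at both temperatures, beside 75.3% of rows. Upp1 had the largest difference, at 6.24 times the WT level at 39.5 °C (5.53 to 7.06) and 9.09 times at 37 °C (7.997 to 10.4). Only 0.131% of tested rows at 39.5 °C and 0.146% at 37 °C had a larger log2 ratio in absolute size. The limma difference was 2.76 ± 0.16 SE on the log2(RPKM + 1) scale (adjusted p = 0.00622).

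Dpp4 was at 4.60 times its WT level at 39.5 °C (3.46 to 6.22) and 3.88 times at 37 °C (3.08 to 4.92), with a limma log2 difference of 1.16 ± 0.15 SE (adjusted p = 0.0157). Nt5e was at 0.397 times the WT level at 39.5 °C (0.368 to 0.429) and 0.580 times at 37 °C (0.516 to 0.650), with a limma log2 difference of −0.91 ± 0.17 SE (adjusted p = 0.0322). The adenosine kinase gene Adk stood at 0.498 times at 39.5 °C (0.437 to 0.567) and 0.492 times at 37 °C (0.426 to 0.568), a limma log2 difference of −0.75 ± 0.13 SE (adjusted p = 0.0287). Slc29a1 was at 0.746 times at 39.5 °C (0.717 to 0.776) and 0.570 times at 37 °C (0.545 to 0.595), with −0.61 ± 0.14 SE (limma adjusted p = 0.0494). This call was lost with limma without a variance trend (adjusted p = 0.0599) and with robust limma (0.0504). All 5 genotype calls were lost when rows under 1 RPKM were added to the limma fit, with adjusted p of 0.0546 to 0.0976; 0 of 19555 rows then passed, beside 5396 at an unadjusted p under 0.05.

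**Figure D3:**
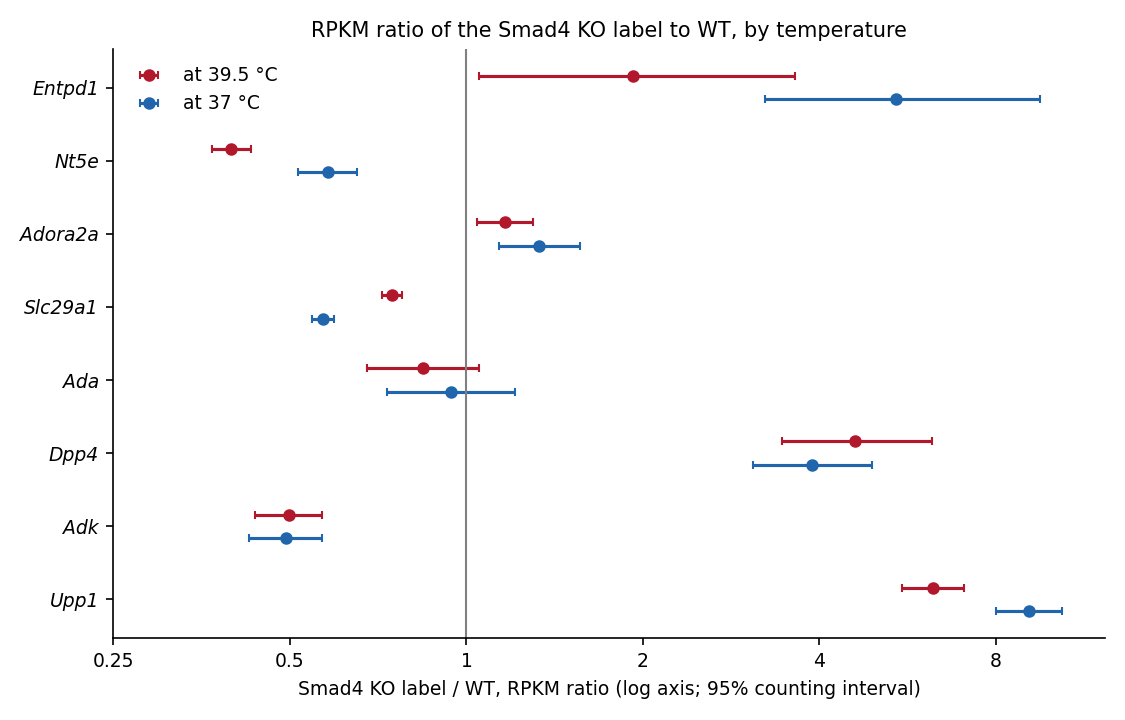
Ratio of the level in the library labelled Smad4 KO to that in WT (horizontal log axis) for each of the 8 genes, at 39.5 °C and at 37 °C. Points are ratios of RPKM between 2 libraries and lines 95% counting intervals. Upp1, Dpp4 and Entpd1 lie right of 1 at both temperatures, Nt5e, Adk and Slc29a1 left of 1.

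Adora2a and Ada did not pass for genotype. The receptor gene was at 1.16 times its WT level at 39.5 °C (1.04 to 1.30) and 1.33 times at 37 °C (1.14 to 1.56), and its limma log2 difference was 0.28 ± 0.13 SE (adjusted p = 0.189). Ada was at 0.843 times (0.677 to 1.05) and 0.941 times (0.731 to 1.21) at 39.5 and 37 °C, with −0.13 ± 0.13 SE in limma (adjusted p = 0.506). Entpd1, too low to be tested, was at 1.92 times the WT level at 39.5 °C (1.05 to 3.63) and 5.39 times at 37 °C (3.23 to 9.49). By the 2-fold rule at 39.5 °C, Upp1 and Dpp4 were higher (2.3% of rows) and Nt5e lower (1.05% of rows). At 37 °C, Upp1 and Dpp4 were higher (4.7% of rows) and 0 members lower (1.14% of rows). The rule was applied to log2(RPKM + 1). Adk, at RPKM ratios of 0.498 and 0.492, reached −0.757 and −0.745 on that scale at 39.5 and 37 °C and did not pass. The median log2 ratio of the 7 genes was −0.20 at 39.5 °C and −0.07 at 37 °C, beside 0.00 and −0.01 over all rows.

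Some markers of other cells differed between the genotype labels and others did not keep 1 direction, and their part in the differences above was not tested. Foxp3, the factor of regulatory T cells, was at 0.477 and 1.98 RPKM in the KO-labelled cultures at 39.5 and 37 °C, against 5.10 and 7.80 RPKM in WT at 39.5 and 37 °C. Foxp3 was thus lower with the KO label at both temperatures. The 4 regulatory T cell markers, all among the rows, summed to 449 and 635 RPKM with the KO label and to 483 and 496 RPKM in WT, at 39.5 and 37 °C. This sum was lower with the KO label at 39.5 °C and higher at 37 °C. Most of it was Il2ra (259 and 394 RPKM with the KO label, 299 and 306 RPKM in WT) and Ctla4 (189 and 239 RPKM, against 179 and 182 RPKM in WT). Ikzf2, a further gene of that list, was at 0.281 and 0.142 RPKM with the KO label and 0.143 and 0.0662 RPKM in WT. Of the 3 stromal and endothelial markers 2 were among the rows, summing to 5.08 and 9.88 RPKM with the KO label and to 1.96 and 3.22 RPKM in WT. Most of that sum was Pecam1, a gene that T cells also express, at 4.82 and 9.48 RPKM with the KO label and 1.49 and 2.74 RPKM in WT. Cd8b1, the CD8 T cell marker among the rows, was at 2.86 and 4.01 RPKM with the KO label and 3.91 and 3.52 RPKM in WT, again with opposite directions at the 2 temperatures. The myeloid markers (3 of 5 in the tables) summed to 0.304 and 0.642 RPKM with the KO label and to 1.54 and 1.07 RPKM in WT, and Cd14 was at 0 in WT at 37 °C.

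Promoter windows of 300 bases (250 before to 50 after a RefSeq start, GRCm38.p6) were read for 7 of the 8 genes, which have 18 windows, from the RefSeq promoter table. They are shown in gene orientation for Upp1 and Dpp4, the 2 tested genes that rose with the KO label, and for Nt5e, which had the lowest limma estimate of those that fell. Of the 3 Upp1 windows, the one shown is placed on the first annotated GENCODE start, and Dpp4 and Nt5e have 1 window each. The Upp1 and Dpp4 windows contain the start of a GENCODE vM21 transcript at the RefSeq start, and the Nt5e window does not. Capitals mark each match, on either strand, to the SMAD box letters CAGAC or the AP-1 letters TGANTCA.
Upp1 (chr11:9117853-9118152, plus strand): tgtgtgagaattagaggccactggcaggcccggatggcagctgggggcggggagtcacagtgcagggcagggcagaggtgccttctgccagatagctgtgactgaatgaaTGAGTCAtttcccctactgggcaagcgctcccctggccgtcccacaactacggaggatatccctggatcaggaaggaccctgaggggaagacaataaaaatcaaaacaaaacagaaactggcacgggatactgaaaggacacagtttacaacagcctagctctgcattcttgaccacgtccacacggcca
Dpp4 (chr2:62412182-62412481, minus strand): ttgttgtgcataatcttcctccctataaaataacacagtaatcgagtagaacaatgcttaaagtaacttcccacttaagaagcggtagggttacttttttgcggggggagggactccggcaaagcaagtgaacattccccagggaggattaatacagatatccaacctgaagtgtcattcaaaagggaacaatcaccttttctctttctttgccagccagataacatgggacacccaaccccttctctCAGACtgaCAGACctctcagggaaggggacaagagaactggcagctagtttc
Nt5e (chr9:88327359-88327658, plus strand): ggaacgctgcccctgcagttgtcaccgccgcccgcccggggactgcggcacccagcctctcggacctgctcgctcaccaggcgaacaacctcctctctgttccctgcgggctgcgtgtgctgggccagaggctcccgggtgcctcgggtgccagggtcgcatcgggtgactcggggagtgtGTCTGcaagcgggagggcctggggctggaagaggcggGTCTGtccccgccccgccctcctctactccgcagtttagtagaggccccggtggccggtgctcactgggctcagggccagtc
The Dpp4 window held 2 SMAD box matches, with first bases at −2 and 7, so 1 spanned the RefSeq start and 1 lay after it. The Nt5e window held 2 matches upstream of its RefSeq start. Over all 32851 windows of this length, 49.6% held at least 1 such match. The Upp1 window shown held 1 AP-1 match, a motif found in 7.81% of all windows. The same bases gave the match of the overlapping first Upp1 window, the third held none, and none of the 3 held CAGAC. Of the member windows, 10 of 18 held a SMAD box match. The full cyclic AMP response element TGACGTCA was in 0 of the 18 and in 1.79% of all windows. Its TGACG part was in 4 of them, against 20.8% of all windows. The Dpp4 window also held the heat shock element letters GAANNTTC, present in 7.86% of all windows. In base composition the Nt5e window had 23 CG pairs and 71% GC, the Upp1 window shown 8 CG pairs and 55% GC, and the Dpp4 window 4 CG pairs and 45.3% GC, beside medians of 7 CG pairs and 52.7% GC. A match to letters is a description and says nothing of binding.

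The response to temperature was then set against the genotype label. As a difference of log2 ratios, cells labelled Smad4 KO minus WT, it was −0.57 for Nt5e, −0.52 for Upp1, 0.38 for Slc29a1, −0.15 for Adora2a, −0.13 for Ada, −0.08 for Dpp4 and −0.01 for Adk. With a pseudocount of 0.1 the signs for Dpp4 (0.16) and Adk (0.01) turned. None of the 7 genes reached a 2-fold difference, and with 1 library per group it could not be tested. For Nt5e, 10.5% of all tested rows had a larger difference in absolute size, and for Upp1 12.7%. The median over the 7 genes was −0.13, beside 0.00 over all rows.

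The wider pathway was followed through 8 lists of 121 genes, of which 105 were among the rows and 88 had a mean of at least 1 RPKM. In limma 5 of the 88 rose and 5 fell with the KO label (11.4%, beside 13.3% of all rows), and 0 passed for temperature, beside 0.0219% of all rows. At an unadjusted p under 0.05 in limma, 14 of the 88 were higher and 11 lower at 39.5 °C, beside 14% of all rows in either direction. The 10 genotype calls were lost, like those of the members, when rows under 1 RPKM entered the fit. Among receptors for extracellular nucleotides, P2rx7 rose with the KO label. This ATP-gated channel gene was at 3.55 and 5.63 RPKM in the KO-labelled cultures at 39.5 and 37 °C, against 0.625 and 0.634 RPKM in WT at 39.5 and 37 °C (limma log2 1.75 ± 0.18 SE, adjusted p = 0.0147). Both libraries with the KO label were above both of WT. Panx1, the gene of a channel that releases ATP, rose too (12.7 and 17.2 RPKM, against 8.12 and 11.4 RPKM in WT, adjusted p = 0.0413). The median genotype difference of the 6 receptor and channel genes tested was 0.21.

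The nucleoside carriers other than Slc29a1 moved in both directions. Slc29a2, the gene of a further equilibrative transporter, fell with the KO label, at 5.87 and 4.91 RPKM in the KO-labelled cultures at 39.5 and 37 °C, against 9.45 and 14.2 RPKM in WT at 39.5 and 37 °C (limma log2 −0.99 ± 0.20 SE, adjusted p = 0.0381). Slc28a2, a sodium-coupled nucleoside transporter gene, rose, at 4.21 and 6.17 RPKM against 2.38 and 3.14 RPKM (limma adjusted p = 0.0323). Slc29a3, the gene of a lysosomal transporter, was at 7.74 and 7.62 RPKM with the KO label and at 17.0 and 8.71 RPKM in WT, so the WT library at 39.5 °C stood alone (limma adjusted p for genotype 0.122, and 0.0498 with a minimum of 5 RPKM). Of the other carriers tested none passed for genotype, and the median of the 4 was −0.31.

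In purine metabolism, 2 of the 12 tested genes of purine synthesis fell with the KO label. The limma estimate was below 0 for 9 of the 12 (median −0.29) and for 8 of 9 genes of pyrimidine and deoxynucleotide synthesis, beside 7038 of all 13715 rows, and no test was made of these counts. Adss, which acts on the branch to AMP, was at 15.7 and 10.1 RPKM in the KO-labelled cultures at 39.5 and 37 °C, against 31.4 and 21.2 RPKM in WT at 39.5 and 37 °C (limma log2 −0.98 ± 0.12 SE, adjusted p = 0.0157). Prps1, which makes the ribose phosphate donor of the pathway, was at 53.9 and 45.0 RPKM against 94.5 and 71.9 RPKM (adjusted p = 0.0237). In both genes each library with the KO label was below each WT library. Among 22 salvage and breakdown genes the mitochondrial adenylate kinase gene Ak4 rose, at 14.2 and 24.7 RPKM against 6.37 and 14.7 RPKM (adjusted p = 0.0233). Mtap, which cleaves methylthioadenosine, fell, at 16.8 and 16.6 RPKM against 26.6 and 33.9 RPKM (adjusted p = 0.0281). The median of these 22 genes was 0.04.

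Ak1, the cytosolic adenylate kinase gene, had the largest temperature ratio of the tested list genes. It did not pass in limma for either factor, but did with limma-voom on recovered reads (adjusted p = 0.0334 for temperature and 0.0158 for genotype). For temperature, limma-voom also called Ak4 lower (0.0187) and Adss higher (0.0473) at 39.5 °C, and limma with a minimum of 5 RPKM called Ak4 (0.0121). In the KO-labelled cultures Ak1 had 39 reads at 39.5 °C and 13 at 37 °C, a ratio of 2.87 (1.502 to 5.87). WT cells gave 459 Ak1 reads at 39.5 °C and 9 at 37 °C, a ratio of 48.1 (25.1 to 105.9). The levels were 0.817 and 0.284 RPKM with the KO label and 9.17 and 0.191 RPKM in WT, so the WT library at 39.5 °C stood apart from the other 3. Of the 11 pyrimidine salvage and breakdown genes tested, other than Upp1, and of the 9 genes of pyrimidine and deoxynucleotide synthesis, 0 passed in limma for genotype. At an unadjusted p under 0.05 limma gave 1 and 5 of them, beside 34.6% of all rows, and the medians were 0.06 and −0.23.

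Downstream of the receptor, 16 genes of cyclic AMP signalling were tested. Adcy7, an adenylyl cyclase gene, rose with the KO label (17.3 and 14.4 RPKM at 39.5 and 37 °C, against 10.4 and 7.73 RPKM in WT, limma adjusted p = 0.0251). Nr4a3, a nuclear receptor gene induced by cyclic AMP and by antigen receptor signals, fell (2.92 and 3.07 RPKM, against 10.5 and 5.10 RPKM in WT, adjusted p = 0.0470; 0.0519 in limma without a variance trend, where the call was lost). The list's median was 0.12 for genotype and 0.18 for temperature. Of the 8 genes of extracellular nucleotide hydrolysis tested beside the members, 0 passed in limma for genotype. An unadjusted p under 0.05 was found for 2 of them, beside 34.6% of all rows. Enpp1, which also cleaves extracellular ATP, was at 1.22 and 2.08 RPKM with the KO label and 0.667 and 0.530 RPKM in WT (adjusted p = 0.0720; 0.00914 with limma-voom, which called it higher). The phosphatase gene Alpl was at 1.56 and 2.45 RPKM with the KO label and 1.45 and 4.91 RPKM in WT.

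**Figure D4:**
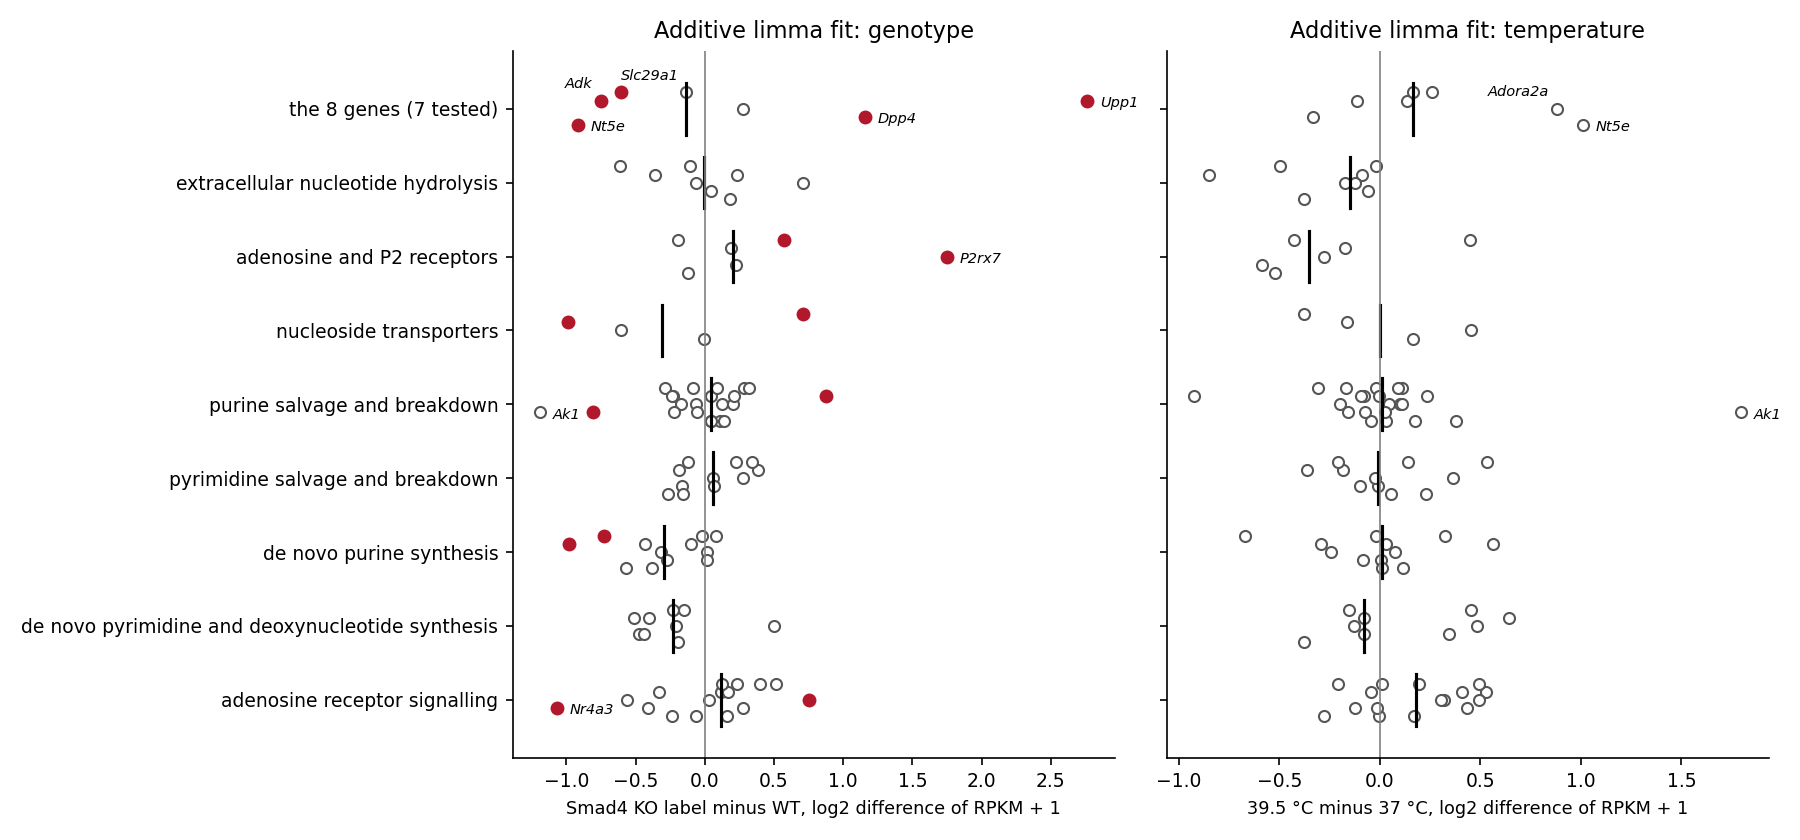
Additive limma estimates on the log2(RPKM + 1) scale for the 7 tested members and the 8 pathway lists, as the Smad4 KO label minus WT (left) and 39.5 °C minus 37 °C (right). Each point is a gene, filled where the adjusted p is under 0.05, and the vertical bars are list medians. Filled points stand on the left panel alone, 5 of 7 members and 10 of 88 other genes.

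Genes whose levels ran most like those of a member were sought among 8947 rows averaging 5 RPKM or more, by the distance between log2(RPKM + 1) profiles centred over the 4 libraries. The search was made for the 4 members whose highest and lowest libraries differed 2-fold on that scale. Closest to Adora2a were Tigit (distance 0.03), Cdca3 (0.10) and Dcxr (0.12). Tigit encodes an inhibitory T cell receptor and stood at 17.7 and 9.95 RPKM in the KO-labelled cultures at 39.5 and 37 °C, against 15.4 and 7.41 RPKM in WT at 39.5 and 37 °C. Closest to Nt5e were Chst11 (0.11), Pdcd1 (0.21) and Spry1 (0.25). Pdcd1, which encodes PD-1, a receptor that inhibits T cells, was at 23.1 and 10.96 RPKM with the KO label and 47.5 and 18.9 RPKM in WT. Upp1 had no neighbour nearer than Ecm1 (0.47), followed by Asb2 (0.50) and Treml2 (0.52). The 3 rows nearest to Dpp4 were unnamed clones, at 0.03 to 0.07. With 4 libraries many profiles can lie close by their order alone.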

How the data were processed

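RNA of 4 cultures was sequenced on the BGI500 platform from total RNA, per the labels' protocols. The authors deposited RPKM, read counts scaled by exon length and library size, with 1 table per library. Trim Galore 0.4.4, Bowtie2, featureCounts, Subread, edgeR and mm10 are named in the submitters' processing notes; neither strandedness nor an annotation release is stated there. The genes and lists were chosen with earlier results of these data known. Levels were taken as log2(RPKM + 1) in the 13715 of 19555 rows averaging 1 RPKM or more. Pairs of libraries were described by a 2-fold rule without p-values. An additive model of genotype label and temperature was fitted with limma 3.58.1 in R 4.3.3 (variance trend, Benjamini-Hochberg adjustment over all rows tested). Whole reads were recovered within a tolerance of 0.01 from the steps of the RPKM values. At the GENCODE vM21 exon length they were whole for 91.6% of the 13172 rows with a GENCODE name and for all 8 genes. Reads of 7482 rows, Slc29a2 among them, were recovered at another length and are less certain, also where limma-voom used them. Recovered reads gave exact Clopper-Pearson 95% intervals of ratios. With 1 library per group these intervals cover counting error only, and reads carry no molecular identifiers. The scripts were tested on simulated data. Outside the 8 genes, the text names, for each list, genes past the adjusted p threshold or the 2-fold rule in a pair (at most 4 per list, largest ratios first), Smad4 and marker genes, and 3 genes of most similar pattern per member. Alternatives were a pseudocount of 0.1, no minimum, a minimum of 5 RPKM, upper quartile and TMM scaling, limma without trend, robust limma, and limma-voom on recovered reads, which was chosen after seeing the data.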

Additional observations from a re-analysis of the deposited data

Results flagged for a closer look

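For 6 named genes the temperature ratio ran in opposite directions in the 2 genotype labels. With 1 library per group, this difference was not tested. As the log2 ratio at 39.5 over 37 °C in cells labelled Smad4 KO minus that in WT, it was 0.38 for Slc29a1 and −0.52 for Upp1 among the 8 genes. For Upp1 the WT ratio lay within counting error of 1, as did that of Slc29a1, which was 0.01 on the log2 scale with upper quartile scaling, so that its directions were then the same. Among the pathway genes it was −0.60 for Enpp1, 0.76 for Slc29a2, 0.36 for Mtap and −0.97 for Nr4a3. In each of these 4 genes 1 of the 2 ratios had a counting interval that spans 1: the KO-labelled ratio for Slc29a2 (0.995 to 1.44), Mtap (0.926 to 1.11) and Nr4a3 (0.814 to 1.11), and the WT ratio for Enpp1 (0.962 to 1.65). No opposite direction among the 6 genes was therefore beyond counting error on both sides. For Slc29a2 this is less certain, because its reads were not whole at the annotated exon length.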

How the results depend on the processing

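No paired analysis was possible because the labels give no replicate numbers and each group has 1 library. Leaving out a library leaves no residual degree of freedom, so no such fit was made, and the planned count test was not run because the deposited values are not counts. No called value changed direction. With a pseudocount of 0.1, rows 2-fold higher and lower at 39.5 °C numbered 221 and 237 with the KO label (103 and 125 in the fit reported) and 391 and 165 in WT (200 and 72), where 2 members rather than 1 were higher. Rows higher and lower with the KO label numbered 549 and 317 at 39.5 °C (315 and 144), and 320 were lower at 37 °C (156). With a minimum of 5 RPKM these counts were 50 and 54, 99 and 45, 204 and 69, and 417 and 95 at 37 °C (645 and 156), with 1 member higher at each temperature rather than 2, since Dpp4 was below the minimum. For temperature in limma, 2 rows were higher and 1 lower. The counts were 19 and 11 with the pseudocount, 178 and 112 with a minimum of 5 RPKM (2 members higher), 57 and 30 with upper quartile scaling, 54 and 33 with TMM scaling, 8 higher with robust limma, and 259 and 139 with limma-voom (2 members higher). They were 0 and 0 in limma without a minimum (2270 at an unadjusted p under 0.05) and without trend (1885). For genotype, 1176 were higher and 644 lower. Without a minimum these were 0 and 0, with 0 members in either direction; limma-voom gave 1338 lower, and a minimum of 5 RPKM left 1 member higher. The cause was not tested, except that fewer rows enter with a higher minimum. Of 754 single-gene values under alternatives, 706 kept their call or stayed within their counting error, 18 lost a call, 11 gained one and 19 moved. For the difference of temperature responses a fixed shift stood in for the error. Another minimum leaves every ratio between 2 libraries as it was, so those ratios among the 706 could not have moved. Of the uncalled values, 4 changed sign. Entpd1, with 18 to 94 reads per library, was too low to be tested.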
